A study of Mus musculus with 8 samples.

Results

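The 8 hedgehog pathway genes Gli1, Gli2, Gli3, Ptch1, Smo, Hhip, Shh and Ihh were followed in control and Tfap2c-/- cells. They are 8 of the 18193 genes that had at least 1 probe set naming them alone, and 19 probe sets belonged to them, none of which also named another gene. RNA had been hybridised to 8 Affymetrix mouse genome arrays, a 1-colour oligonucleotide array on which a group of short probes (a probe set) reads 1 transcript. Each of 4 groups had 2 arrays, namely ESCs and PGCLCs of the control and of the Tfap2c-/- (knockout) genotype. ESCs are mouse embryonic stem cells. PGCLCs are primordial germ cell-like cells, which the labels call PGC, made from ESCs through an epiblast-like stage with BMP4, BMP8b, SCF, LIF and EGF and then sorted for the Blimp1mVenus reporter.

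All 4 groups carried the Blimp1mVenus transgene, which reports the germ cell regulator Blimp1. The control cells were the parental Blimp1mVenus/Tfap2c flox/flox lines, in which the Tfap2c alleles are floxed but intact. The Tfap2c-/- cells had been derived from them by transient transfection of a Cre plasmid driven by the Pgk promoter, a treatment that the parental cells are not described as having received. The study used 2 ESC lines of each genotype and describes arrays of both lines in each cell type. The 2 samples of a group are by that account its 2 lines, but the labels do not tie a replicate number to a line. Neither the labels nor the study describe arrays of repeat cultures of a line, so every p measures the spread between these samples only. All values below are levels on the log2 scale of the deposited table, or differences between such levels, where 1 unit is a doubling.

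Hedgehog ligands such as Shh and Ihh bind the receptor Ptch1, which without ligand holds the transducer Smo inactive. Active Smo, working at the primary cilium, lets the zinc finger proteins Gli2 and Gli3 act as activators and not be trimmed into repressors. Gli2 is known mainly as an activator and Gli3 mainly as a repressor. Gli1, Ptch1 and Hhip are themselves transcribed in response to the signal, so that Gli1 amplifies the response while Ptch1 and the ligand-trapping protein Hhip dampen it, and their transcripts are widely used as a readout of the pathway. A change in Gli2 transcript alone is not a readout of the signal, since GLI proteins are controlled mostly after translation.

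Tfap2c, the deleted transcription factor, was at 9.84 and 10.29 in control PGCLCs, 8.52 and 8.85 in knockout PGCLCs, 7.88 and 9.14 in control ESCs and 7.28 and 6.47 in knockout ESCs. Both knockout samples lay below both controls in each cell type, and neither difference passed the test (limma, adjusted p = 0.150 in PGCLCs and 1 in ESCs). Where these probes lie relative to the deleted part of the gene is not given in the sources used here, so the remaining signal does not test the deletion. The study had checked its ESC lines in other ways, by genotyping PCR and by staining for the Tfap2c protein. Of 8 primordial germ cell markers measured, 5 passed the test as higher in PGCLCs than in ESCs of the control genotype, and the mean of the 8 was 7.59 and 7.87 in control PGCLCs against 6.21 and 6.12 in Tfap2c-/- PGCLCs. Their 8 levels were all lower in both Tfap2c-/- PGCLC samples than in both controls, and 3 of them (Dppa3, Kit and Itgb3) passed. The mean of the 8 naive pluripotency markers was 8.72 and 8.27 in the control PGCLCs against 9.15 and 9.54 in knockout PGCLCs, and 1 of them (Klf4) rose. The mean of 6 epiblast markers was 5.27 and 5.45 against 6.17 and 5.80, and 1 (Pou3f1) rose, while 0 of 7 neural, 0 of 10 endoderm, 0 of 7 mesoderm and 0 of 6 trophoblast markers passed. The arrays also differed in 2 technical readouts: the mean of 24 spike-in probe sets was 7.91, 7.44 and 6.72 on control PGCLC array 2 and Tfap2c-/- PGCLC arrays 1 and 2 and 5.42 to 5.91 on the other 5, and the Gapdh 3′ probe set exceeded the 5′ one by 0.95 on control PGCLC array 2 and by 0.31 to 0.52 on the others. The part of these readouts and of the marker levels in the results below was not tested. In bulk samples fewer cells of a type and less RNA per cell cannot be told apart.

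**Figure D1:**
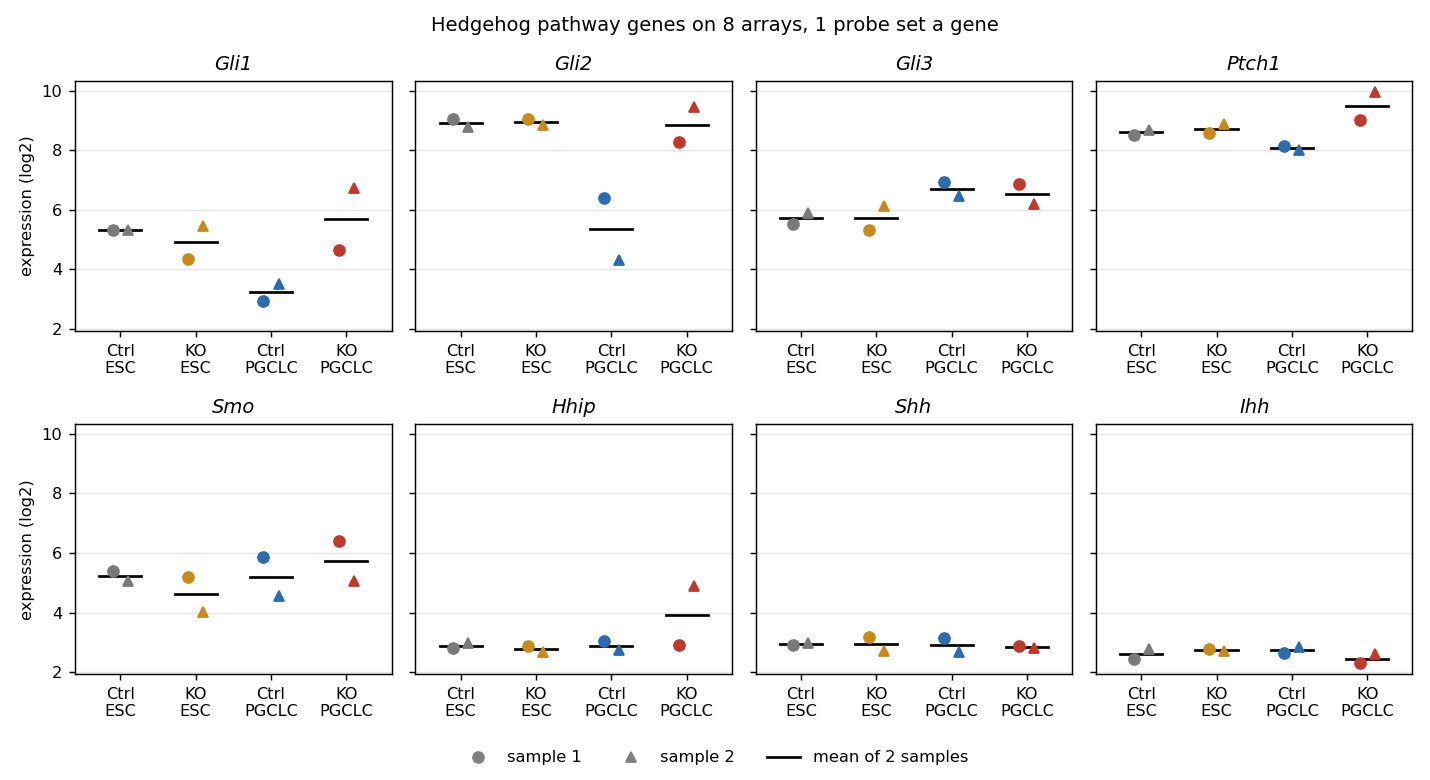
Level of each of the 8 hedgehog pathway genes (vertical axis, log2) in the 4 groups (horizontal axis), with a circle for sample 1, a triangle for sample 2 and a bar for their mean; each gene is shown by its probe set with the highest mean. Gli2 and Gli1 were lowest in control PGCLCs, Ptch1 was highest in Tfap2c-/- PGCLCs, Hhip stood out in 1 sample, and Shh and Ihh stayed between 2.31 and 3.20 on every array.

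Gli2 showed the largest difference of the 8 genes. Its level was 6.40 and 4.33 in control PGCLCs, 8.27 and 9.44 in knockout PGCLCs, 9.06 and 8.77 in control ESCs and 9.05 and 8.83 in knockout ESCs. The 2 control PGCLC samples were thus the low ones, well apart from all other samples and also 2.07 apart from each other, while the Tfap2c-/- PGCLCs spanned the ESC levels. Gli2 was 3.49 higher in Tfap2c-/- than in control PGCLCs on the log2 scale (SE 0.62, 11.2-fold, limma, adjusted p = 0.0298). Control PGCLCs were 3.55 below control ESCs on the same scale (log2 difference -3.55, SE 0.62, adjusted p = 0.0163), whereas Tfap2c-/- PGCLCs and Tfap2c-/- ESCs overlapped (log2 difference -0.09, 95% interval -1.54 to 1.36, adjusted p = 0.956). In ESCs the 2 genotypes overlapped as well (log2 difference 0.03, 95% interval -1.42 to 1.48).

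The test of Gli2 in PGCLCs depended on single arrays. Leaving out an array left its group with 1 sample, which was then assumed to vary like the samples of the other groups. It passed without control PGCLC sample 1 (log2 difference 4.52, adjusted p = 0.00875) and without either Tfap2c-/- ESC sample, and did not pass without control PGCLC sample 2 (2.46, adjusted p = 0.0958), Tfap2c-/- PGCLC sample 1 (4.07, adjusted p = 0.0600), Tfap2c-/- PGCLC sample 2 (2.91, adjusted p = 0.189) or control ESC sample 1 or 2 (3.49 in both, adjusted p = 0.0609 and 0.0610). Nor did it pass with the 4 PGCLC arrays fitted alone (adjusted p = 0.128). The lower level in control PGCLCs than in control ESCs did not pass without control ESC sample 1 (log2 difference -3.41, adjusted p = 0.10) or 2 (-3.69, adjusted p = 0.0753), and passed without any other single array. A second Gli2 probe set gave 4.39 and 4.18 in control PGCLCs, 6.21 and 7.31 in knockout PGCLCs, 6.90 and 6.64 in control ESCs and 6.94 and 7.12 in knockout ESCs. On it the 2 control PGCLC samples were close to each other and again below every other sample, with a log2 difference between PGCLC genotypes of 2.47 (limma over all probe sets, adjusted p = 0.0141). The name of this second probe set carries the suffix for probes that may be shared between transcripts.

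Gli1, the GLI gene that is itself induced by the signal, was likewise lowest in control PGCLCs. It was at 2.95 and 3.51 in control PGCLCs, 4.66 and 6.73 in knockout PGCLCs, 5.34 and 5.33 in control ESCs and 4.36 and 5.46 in knockout ESCs. Both knockout PGCLC samples lay above both controls but 2.07 apart from each other, and sample 1 lay below the control ESCs while sample 2 lay above them. The log2 difference between PGCLC genotypes was 2.47 (SE 0.64, 95% interval 0.99 to 3.95, limma, adjusted p = 0.0931) and did not pass, and the log2 difference of control PGCLCs from control ESCs, -2.11 (SE 0.64, adjusted p = 0.0889), did not pass either. Without Tfap2c-/- PGCLC sample 1 the first of these was 3.51 and passed (adjusted p = 0.0280), and without sample 2 it was 1.43 and did not (adjusted p = 0.311). The second kept its value of -2.11 and passed without either knockout PGCLC sample (adjusted p = 0.0284 without sample 1 and 0.0281 without sample 2). With the replicate number as a block both passed at the same values (adjusted p = 0.0344 and 0.0332), although the labels do not tie those numbers to a line or culture. Gli1 in control PGCLCs, at 2.95 and 3.51, was below the median of those arrays, 3.54 on both, a range in which array values compress differences.

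Gli3 differed little between genotypes. It read 6.92 and 6.48 in control PGCLCs, 6.86 and 6.18 in knockout PGCLCs, 5.53 and 5.89 in control ESCs and 5.34 and 6.14 in knockout ESCs. The genotypes overlapped in both cell types, and both PGCLC groups lay above the ESC group of their own genotype without passing (log2 difference 0.99, adjusted p = 0.124 in controls and 0.78, adjusted p = 0.269 in knockouts). Between PGCLC genotypes the log2 difference was -0.18 (95% interval -0.96 to 0.60, adjusted p = 0.880).

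Ptch1, the receptor and a feedback target, was at 8.14 and 8.01 in control PGCLCs, 9.01 and 9.94 in knockout PGCLCs, 8.52 and 8.69 in control ESCs and 8.57 and 8.88 in knockout ESCs. Both Tfap2c-/- PGCLC samples were above all 6 others, sample 2 by more than sample 1, and both control PGCLC samples were below all others. It rose by 1.40 on the log2 scale in Tfap2c-/- against control PGCLCs (SE 0.28, 2.64-fold, limma, adjusted p = 0.0410). The log2 difference between control PGCLCs and control ESCs was -0.53 (adjusted p = 0.304) and that between ESC genotypes 0.12 (95% interval -0.52 to 0.77), and neither passed.

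The call for Ptch1 held in 6 of the 17 alternative settings tried and was lost in 11. Leaving out any single array except Tfap2c-/- PGCLC sample 1 ended it, with adjusted p from 0.0550 without Tfap2c-/- ESC sample 1 to 0.256 without control PGCLC sample 2, and without Tfap2c-/- PGCLC sample 2 the log2 difference was 0.94 (adjusted p = 0.127). The other 2 Ptch1 probe sets did not follow it: one was at 3.03 and 3.32 in control and 2.97 and 4.58 in Tfap2c-/- PGCLCs, and the other at 3.58 and 3.35 against 3.15 and 3.69. On both of these the PGCLC genotypes overlapped, and with the mean of the 3 probe sets the log2 difference fell to 0.65 (adjusted p = 0.363). Apart from the value of 4.58, both lay near or below the array medians of 3.47 to 3.55, a range in which array values compress differences. Their lack of a rise therefore says little.

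Hhip, the ligand-binding antagonist and the third feedback target, was at 3.04 and 2.75 in control PGCLCs, 2.93 and 4.89 in knockout PGCLCs, 2.80 and 2.98 in control ESCs and 2.88 and 2.68 in knockout ESCs. A single array, Tfap2c-/- PGCLC sample 2, stood above the other 7, which were all below the array medians of 3.47 to 3.55. The log2 difference between PGCLC genotypes was 1.02 (SE 0.53, limma, adjusted p = 0.423) and did not pass. It was 2.00 (adjusted p = 0.0209) without Tfap2c-/- PGCLC sample 1 and 0.04 (adjusted p = 0.982) without sample 2, so its size was set by that sample. Knockout PGCLCs against knockout ESCs also passed without that sample 1 (log2 difference 2.11, adjusted p = 0.0324). Sample 2 was the highest for all 4 Hhip probe sets.

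Smo, the transducer, read 5.86 and 4.55 in control PGCLCs, 6.42 and 5.07 in knockout PGCLCs, 5.39 and 5.07 in control ESCs and 5.20 and 4.03 in knockout ESCs. Sample 1 was above sample 2 in all 4 groups and the genotypes overlapped in both cell types (log2 difference between PGCLC genotypes 0.54, 95% interval -0.83 to 1.92, adjusted p = 0.756). The interval for Smo reached beyond 1 log2 unit.

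The ligands were low on every array. Shh was at 3.16 and 2.67 in control PGCLCs, 2.88 and 2.82 in knockout PGCLCs, 2.91 and 2.98 in control ESCs and 3.20 and 2.73 in knockout ESCs, with all groups overlapping. Ihh was at 2.66 and 2.85, 2.31 and 2.60, 2.46 and 2.77, and 2.79 and 2.71 in the same order. For Ihh both knockout PGCLC samples were below both control PGCLC samples without passing (log2 difference -0.29, 95% interval -0.68 to 0.10, adjusted p = 0.477). Every one of these values lay below the median of its array, and no detection call was used here. Ligand protein in the medium is not measured by the array.

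Across the 8 genes, 2 passed limma as higher in Tfap2c-/- PGCLCs (Gli2 and Ptch1) and 0 as lower, where 1.29% of all genes tested passed as higher and 1.8% as lower. The study had already listed Gli2 among the genes raised in these same samples, and the 8 were chosen with that rise known, so its call is not independent evidence. Gli1, Gli2 and Ptch1 had both knockout samples above both controls, which held for 19.5% of all genes, and Gli1 and Gli2 differed by more than 1.5 on the log2 scale, the size rule used in the study, which 1.06% of all genes passed as higher. The median log2 difference of the 8 was 0.78, against -0.04 over all genes. In control PGCLCs against control ESCs, 1 of the 8 passed as lower (Gli2) and 0 as higher, where 3.72% and 4.64% of all genes passed, and 3 (Gli1, Gli2 and Ptch1) had both samples below both, as did 28.5% of all genes. In Tfap2c-/- PGCLCs against Tfap2c-/- ESCs, 0 of the 8 passed, where 1.35% of all genes passed as higher and 0.973% as lower. These comparisons share samples: the control PGCLCs that set the low end of the first also set it in the second.

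In ESCs none of the 8 passed limma between genotypes, and 0% of all genes did. At an unadjusted p under 0.05 there were 455 of the 18193 genes and 0 of the 8 among them, whose smallest unadjusted p was 0.331 (Smo, limma). That is under the share of 0.05 that such a cut gives without any effect, so the 0 of the 8 says little. The knockout effect in PGCLCs minus that in ESCs, tested as its own contrast, passed for 0 of the 8, where 0.148% of all genes passed. It was 3.46 for Gli2 (SE 0.88, limma, adjusted p = 0.270), 2.90 for Gli1 (SE 0.90, adjusted p = 0.384), 1.28 for Ptch1 (SE 0.39, adjusted p = 0.378) and 1.13 for Hhip (SE 0.75, adjusted p = 0.756). An effect in PGCLCs that differs from that in ESCs was therefore not shown for any of the 8. Among the alternatives Gli2 passed without control PGCLC sample 1 (4.49, adjusted p = 0.0482), a fit in which that group was the lower sample alone, at 4.33, with its spread taken from the other groups.

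**Figure D2:**
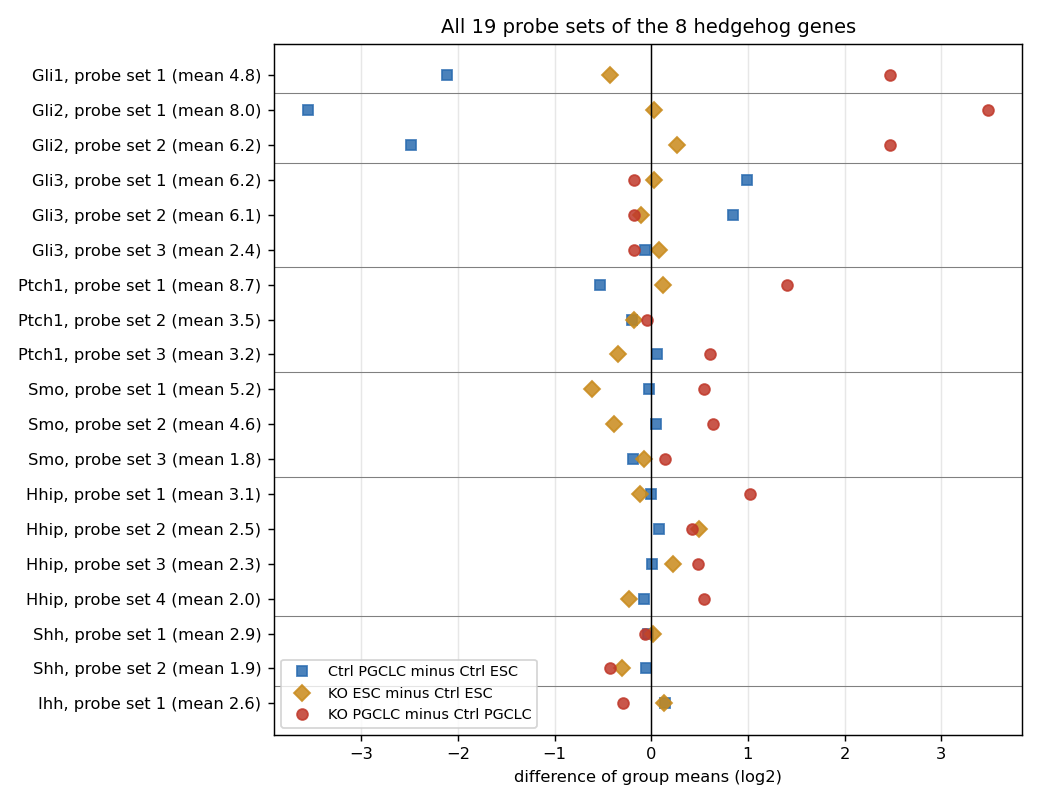
Differences of group means (horizontal axis, log2) for each of the 19 probe sets of the 8 genes (rows, ordered by gene and, within a gene, by mean level, printed beside the name); squares are control PGCLCs minus control ESCs, diamonds Tfap2c-/- minus control ESCs and circles Tfap2c-/- minus control PGCLCs. Circles reach 2.47 for Gli1 and 3.49 and 2.47 for Gli2, and for Ptch1 the circle lies at 1.40 on the highest probe set and nearer to 0 on the 2 lower ones.

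Over the 19 probe sets, 8 lay below the median of every array on all 8 arrays. In the plot of probe set differences the 2 of Gli2 had the same direction in all 3 contrasts, and the 2 higher ones of Gli3 lay close together, as did those of Smo. Tfap2c-/- PGCLC sample 2 held the highest value for 9 of the 19 probe sets (Gli1, both of Gli2, 2 of Ptch1 and all of Hhip) and for 4 of the 8 genes, where that array was the highest for 10.4% of all single-gene probe sets and 8.54% of all genes. That sample and Tfap2c-/- PGCLC sample 1 did not share a level for these 4 genes: sample 1 was lower by 2.07 for Gli1, 1.17 for Gli2, 0.93 for Ptch1 and 1.96 for Hhip.

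The promoter windows of Gli2, Ptch1 and Hhip are shown as the genes whose level or feedback role the comparison of genotypes turned on. RefSeq gave a window of 300 bases, 250 before and 50 after the annotated start, for 6 of the 8 genes on build GRCm38.p6, and Gli1 and Shh had no entry. The windows lie at chr1:119053570-119053869 for Gli2, chr13:63565686-63565985 for Ptch1 and chr8:80057959-80058258 for Hhip, all on the minus strand, and are printed 5′ to 3′ with matches to the letters of the AP-2 family, to which Tfap2c belongs, in capitals.
Gli2: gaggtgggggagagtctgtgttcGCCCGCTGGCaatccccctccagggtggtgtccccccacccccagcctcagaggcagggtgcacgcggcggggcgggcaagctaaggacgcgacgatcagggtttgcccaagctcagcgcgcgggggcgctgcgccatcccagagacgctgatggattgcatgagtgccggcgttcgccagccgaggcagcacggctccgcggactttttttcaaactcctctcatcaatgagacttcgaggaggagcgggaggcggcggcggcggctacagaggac
Ptch1: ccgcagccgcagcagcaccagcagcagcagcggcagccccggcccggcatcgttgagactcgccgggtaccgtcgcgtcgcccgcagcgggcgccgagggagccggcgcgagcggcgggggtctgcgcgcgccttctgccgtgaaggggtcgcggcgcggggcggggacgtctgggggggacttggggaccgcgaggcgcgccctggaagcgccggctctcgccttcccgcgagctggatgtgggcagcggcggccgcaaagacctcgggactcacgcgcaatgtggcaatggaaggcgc
Hhip: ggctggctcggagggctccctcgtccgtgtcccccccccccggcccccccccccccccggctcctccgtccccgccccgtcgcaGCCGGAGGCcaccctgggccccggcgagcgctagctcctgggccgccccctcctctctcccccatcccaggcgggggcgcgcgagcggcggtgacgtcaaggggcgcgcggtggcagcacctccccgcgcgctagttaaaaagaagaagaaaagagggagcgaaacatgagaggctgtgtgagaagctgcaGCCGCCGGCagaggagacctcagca

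The AP-2 letters searched were GCCNNNGGC and GCCNNNNGGC, which read the same on both strands, and 16.6% and 14.8% of the 32851 RefSeq promoter windows held them, 27% holding either. Gli2 held GCCCGCTGGC, starting 227 bases before the annotated start. Hhip held GCCGGAGGC, starting 166 bases before it, and GCCGCCGGC, starting 26 bases after it. Ihh held GCCTTGGGGC, starting 138 bases before its start, and the windows of Ptch1, Smo and Gli3 held neither form. The GLI letters GACCACCCA, searched on both strands, were in none of the 6 windows and in 0.253% of all windows. Gli2, Ptch1 and Hhip had 28, 47 and 30 CG dinucleotides in the window, and Gli3, Ihh and Smo had 39, 30 and 17. Over all windows the median was 7 and the upper quartile 20. The 6 windows were 67.3% to 76.3% G and C, against a median of 52.7% over all windows. The 27% is therefore not a share among windows of like composition. The 5′ ends of the annotated Ptch1 and Gli2 genes lie at chr13:63573460 and chr1:119054405, so the windows of these genes lie inside them. Letters near their other starts were not searched. These matches are letters in short windows and no binding was measured by the arrays.

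The pathway genes around the 8 members were read from a list of which 29 were analysed here. In Tfap2c-/- against control PGCLCs 3 passed as higher and 1 as lower, where 1.29% and 1.8% of all genes passed, and the median log2 difference of the 29 was -0.04, as over all genes. No member of the ligand, acylation and release group passed, the largest log2 differences being 0.57 for Scube2, which helps to release the ligand (adjusted p = 0.326), and -0.55 for Hhat, the enzyme that acylates it (adjusted p = 0.545).

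Among the co-receptors 1 of 4 passed. Lrp2, a large endocytic receptor that binds Shh, was at 3.49 and 3.12 in control PGCLCs, 6.70 and 5.51 in knockout PGCLCs, 2.82 and 2.51 in control ESCs and 2.87 and 2.71 in knockout ESCs. Only the Tfap2c-/- PGCLC samples were above 4, and Lrp2 rose there by 2.80 on the log2 scale (SE 0.36, limma, adjusted p = 0.00968). The co-receptors Cdon, Boc and Gas1 had log2 differences of -0.04, 0.08 and -0.05, with no test passed.

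Of 11 inhibitors and kinases that act on GLI proteins, 1 passed. Spop, the substrate adaptor of a ubiquitin ligase that targets GLI proteins for degradation, was at 7.71 and 7.21 in control PGCLCs, 8.73 and 8.71 in knockout PGCLCs, 8.40 and 7.84 in control ESCs and 8.51 and 8.39 in knockout ESCs. Both Tfap2c-/- PGCLC samples were above both control PGCLC samples, by a log2 difference of 1.26 (SE 0.23, adjusted p = 0.0298). Sufu, which holds GLI proteins in the cytoplasm, had both knockout samples above both controls without passing (1.03, adjusted p = 0.160).

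Among 10 genes of Smo regulation and the primary cilium, 1 passed as higher and 1 as lower. Tulp3, which brings receptors into the cilium and restrains the pathway, was at 6.83 and 6.44 in control and 7.82 and 7.59 in Tfap2c-/- PGCLCs. The log2 difference was 1.07 (adjusted p = 0.0308), or 0.14 (adjusted p = 0.732) with the mean of its 3 probe sets. Kif3a, a motor subunit needed to build the cilium, was at 7.37 and 6.95 in control and 5.88 and 5.48 in Tfap2c-/- PGCLCs. The log2 difference was -1.48 (SE 0.22, limma, adjusted p = 0.0164). The other 8 did not pass.

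The target list analysed here held 22 genes known to be transcribed in response to GLI proteins in some tissue, besides Gli1, Ptch1 and Hhip. In Tfap2c-/- against control PGCLCs 1 passed as higher and 0 as lower, where 1.29% and 1.8% of all genes passed, and the median log2 difference was -0.03. Both knockout samples lay above both controls for 3 of the 22 and below them for 7. Over all 18193 genes the same held for 3552 and 5082. Of the 22, 10 lay below the array median on all 8 arrays (45.5%, against 30.3% of all genes), where differences are compressed, so that the median of the list says little about them. Sfrp1, a secreted Wnt antagonist, was at 4.58 and 4.92 in control PGCLCs, 6.98 and 8.01 in knockout PGCLCs, 7.47 and 7.24 in control ESCs and 7.59 and 8.31 in knockout ESCs. The 2 control PGCLC samples were the low ones and Sfrp1 was 2.75 higher in the knockout on the log2 scale (SE 0.37, limma, adjusted p = 0.0112). Bmp4 had the largest fall of the list without passing (log2 difference -0.89, limma, adjusted p = 0.237). It was at 6.79 and 6.39 in control PGCLCs and 5.80 and 5.60 in knockout PGCLCs. The study had likewise singled out Sfrp1 and Ccnd1 from these same samples, so their values here are not independent evidence. It also reported, by ChIP in PGCLCs, that the Tfap2c protein was enriched at Sfrp1, and named Sfrp1 a direct target of Tfap2c. Its qRT-PCR of PGCLCs gave Ccnd1 as raised in the knockout. All 5 calls from the pathway and target lists were lost without control PGCLC sample 2, with adjusted p from 0.0612 for Kif3a to 0.215 for Tulp3 and log2 differences of 2.62 for Lrp2, 2.92 for Sfrp1, 1.01 for Spop, 0.87 for Tulp3 and -1.69 for Kif3a, and all genes called then numbered 87 in place of 562. Without Tfap2c-/- PGCLC sample 2 the calls of Spop (1.27), Tulp3 (1.18), Kif3a (-1.28) and Sfrp1 (2.23) were lost as well. Those of Spop (1.25) and Tulp3 (0.95) were lost without sample 1, those of Kif3a (-1.27) and Sfrp1 (2.57) without control PGCLC sample 1, and that of Tulp3 (1.07) without either control ESC sample. Without probe sets liable to be shared Lrp2 had a log2 difference of 1.80 and did not pass, and with the mean of its probe sets Spop had 0.90 and did not pass.

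Of the feedback and cell cycle group none of 4 passed. Ccnd1, the G1 cyclin D1, was at 7.0 and 5.36 in control PGCLCs, 8.37 and 8.66 in knockout PGCLCs, 9.37 and 8.43 in control ESCs and 9.04 and 9.73 in knockout ESCs. Its control PGCLC samples were again the lowest, and the log2 difference of 2.33 did not pass (SE 0.53, adjusted p = 0.0639). It passed where only genes at 5 or more on at least 2 arrays were tested (2.33, adjusted p = 0.0457) and without control PGCLC sample 1 (3.15, adjusted p = 0.0232). Mycn, a growth regulator, had a log2 difference of 0.29. In the forkhead group, whose members include GLI targets of lung and gut mesenchyme, none of 5 passed, the largest being -0.63 for Foxf2 and -0.36 for Foxc2. Of the 6 neural tube and somite targets none passed, the largest being -0.19 for Pax9 and -0.12 for Nkx3-2.

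On the question of whether the Gli2 difference came with target activation, the counts stood as follows. Of 3 feedback targets 1 passed (Ptch1), a call lost in 11 of the 17 alternative settings. Gli1 differed in the same direction without passing (limma, adjusted p = 0.0931), and stayed uncalled in 15 of the 17. The difference of Hhip rested on a single array. Of 22 other targets 1 passed (Sfrp1), while 10 lay below the array median on every array. Both knockout samples were above both controls for 3 of the 22 and below them for 7, as were 3552 and 5082 of all 18193 genes. Tfap2c-/- PGCLC sample 2, the highest for Gli1, Gli2, Ptch1 and Hhip, was the highest for 2 of these 22, and for 8.54% of all genes.

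**Figure D3:**
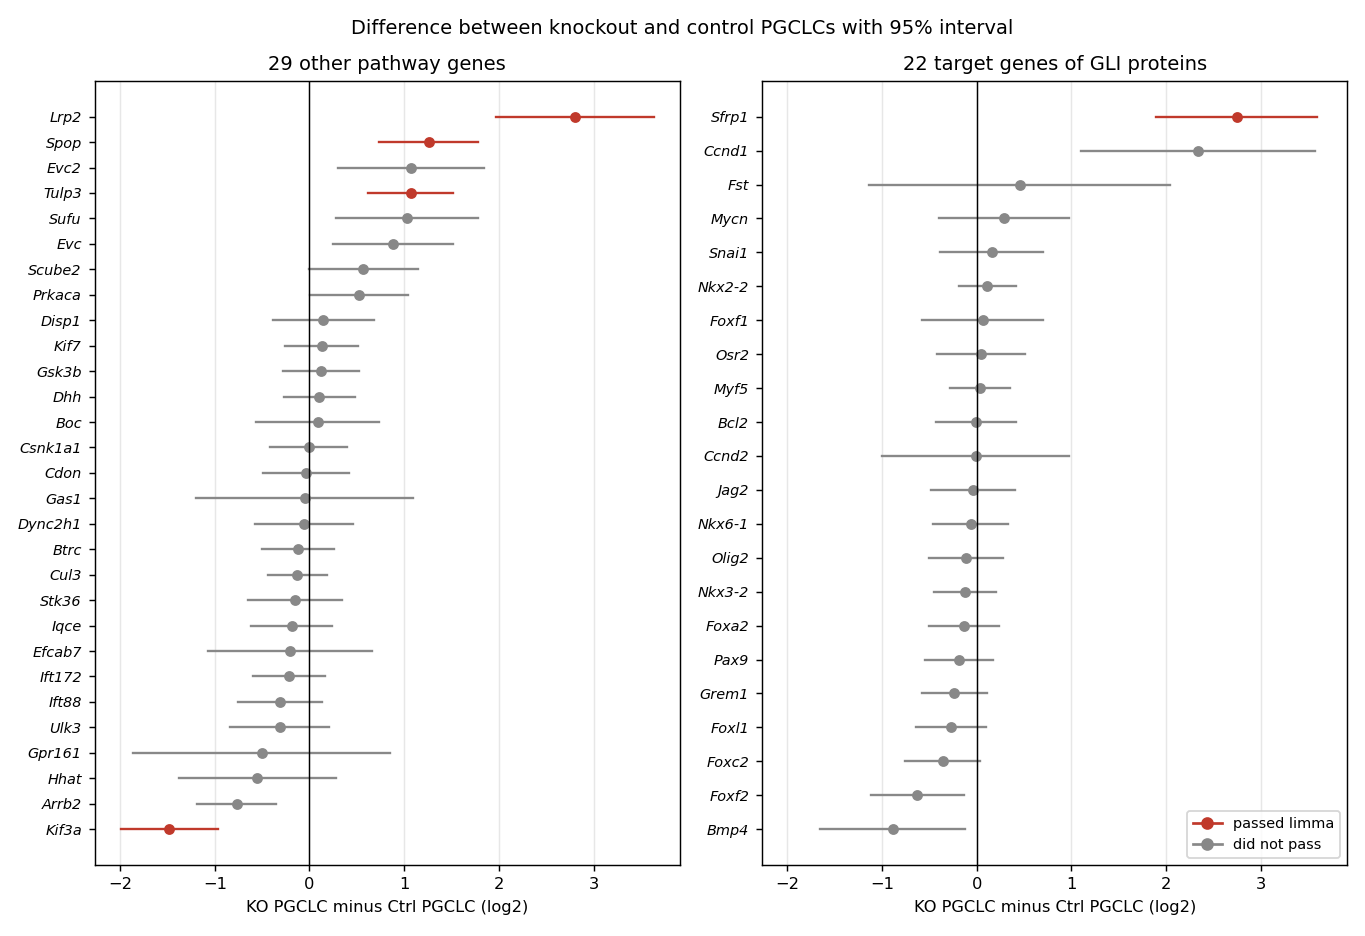
Log2 difference between Tfap2c-/- and control PGCLCs with its 95% interval (horizontal axis) for 29 other pathway genes on the left and 22 target genes of GLI proteins on the right (rows, sorted by difference), in red where limma passed. Lrp2, Spop and Tulp3 passed as higher and Kif3a as lower on the left, Sfrp1 passed as higher on the right, and most other genes lay between -1 and 1.

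The genes whose levels were most like those of Gli2 over the 8 arrays were looked up among 508 other genes with an SD over the arrays of at least 1 on the log2 scale. They were Irf2bpl (Pearson r = 0.992), Nid1 (0.987), Mllt11 (0.983), Zic5 (0.978) and Bcar3 (0.973). The 8 arrays share a normalization and only 4 groups, and the likeness rested on the low levels of the control PGCLC samples. Over the other 6 arrays r was 0.88 for Irf2bpl, 0.61 for Nid1, 0.56 for Mllt11, 0.29 for Zic5 and -0.44 for Bcar3.

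Irf2bpl, the most similar, was at 7.13 and 6.10 in control PGCLCs, 8.88 and 9.28 in knockout PGCLCs, 9.16 and 8.99 in control ESCs and 9.14 and 8.87 in knockout ESCs. Sample 2 of the control PGCLCs was the lowest for all 6 genes in the plot. Zic5, a zinc finger protein, was at 6.35 and 4.81 in the control PGCLCs against 8.58 and 8.88 in knockout PGCLCs.

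**Figure D4:**
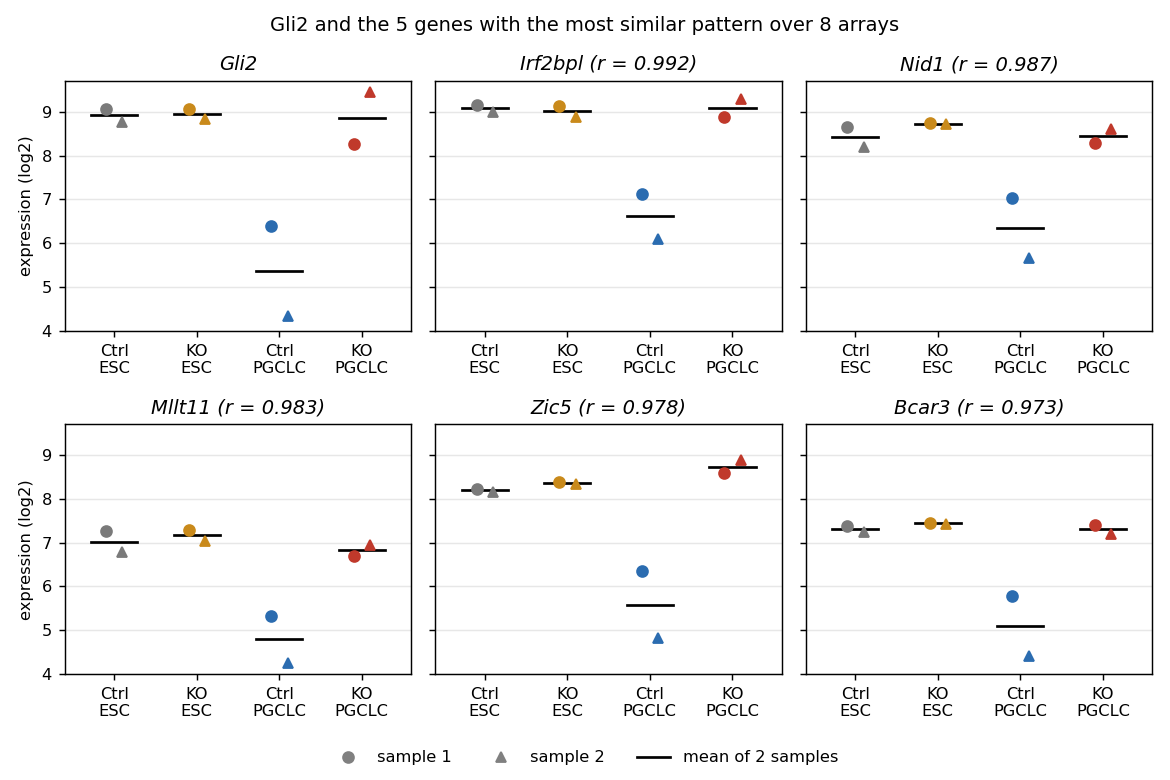
Levels (vertical axis, log2) of Gli2 and the 5 genes with the most similar pattern over the 8 arrays, by group (horizontal axis), with a circle for sample 1, a triangle for sample 2 and a bar for their mean; Pearson r with Gli2 over the 8 arrays is printed above each. In every panel the 2 control PGCLC samples lie below all 6 others.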

How the data were processed

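RNA of ESCs and sorted PGCLCs had been hybridised to 1 array a sample, and the values of 8 samples were taken from the deposited table of log2 values, which the authors had normalized across arrays, by RMA in the study's methods and by GCRMA, without a version, in the submitters' processing notes. Both work on probe intensities, which were not used here. Array medians were 3.47 to 3.55 and values ran from 1.10 to 13.64. Differences at low levels can be compressed, to a degree that may differ between the 2 methods and was not measured here. No further normalization was applied, and the number of arrays, 2 a group, limits the precision.

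Of 45101 probe sets, 64 are controls, 34945 name 1 gene in the platform annotation, 932 name several and 9160 are unnamed there. Single-gene probe sets cover 18193 genes. Each gene was read from 1 probe set, that of the highest mean level on the 8 arrays. Groups were taken from the labels. The 4 group means were fitted together with limma 3.58.1 in R 4.3.3, with eBayes and a trend on level (4 residual and 3.67 prior degrees of freedom), two-sided, with Benjamini-Hochberg adjustment across all genes and calls at an adjusted p under 0.05. Tests were made of Tfap2c-/- against control in each cell type, of the difference between these effects, and of PGCLCs against ESCs of each genotype. The size rule of the study, group means differing by more than 1.5 on the log2 scale, was counted beside it. Spike-in means cover the dap, lys, phe and thr controls of the array. No 2 arrays were copies. The fit was also run on simulated data in which a gene had the same spread in every group. That run cannot check the fit where spreads differ between groups. Gli2, for example, had an SD of 1.46 in control PGCLCs and 0.20 in control ESCs.

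The 8 genes, the pathway, target and marker lists and the tests were chosen with earlier results of these data known. Values were named for the 8 genes, Tfap2c, the 5 genes most like Gli2, and in each role of a list up to 4 genes that passed, or the 2 with the largest difference where none did. Sufu, Cdon, Boc, Gas1 and Bmp4 fall outside this rule and were named after their values were seen, as were the markers that passed. Alternatives were other ways of choosing or averaging probe sets, no trend, a filter at 5, further scaling, the compared arrays alone, each array left out, a replicate block and the size rule. Promoter windows are from RefSeq on GRCm38.p6. Python 3.11.15, pandas 2.3.3, NumPy 2.4.6 and Matplotlib 3.10.9 made the tables and plots.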

Additional observations from a re-analysis of the deposited data

Results flagged for a closer look

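Among the hedgehog, pathway and target genes, the samples of a contrast moved in opposite directions between groups in 5. In none of them did the test of the difference itself pass (limma). The share of all genes with this opposition was not counted, so whether 5 is more than other genes give cannot be told. In PGCLCs alone, both knockout samples lay above both controls for 3552 of all 18193 genes and below them for 5082. Ptch1 was lower in both control PGCLC samples than in both control ESC samples but higher in both Tfap2c-/- PGCLC samples than in both Tfap2c-/- ESC samples, a difference of 1.28 on the log2 scale (SE 0.39, adjusted p = 0.378). Spop did the same, with a difference of 0.93 (adjusted p = 0.444). Foxl1 had both knockout samples above both controls in ESCs and below them in PGCLCs (-0.63, adjusted p = 0.455). Pax9 showed the same opposition (-0.24, adjusted p = 0.833). Kif7, a kinesin that regulates GLI proteins, had both knockout samples below the controls in ESCs and above them in PGCLCs (0.31, adjusted p = 0.794). The last 3 genes differed by small amounts within each cell type.

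Among the marker genes and the genes most like Gli2, the same opposition was seen in 6, and the difference did not pass for any of them (limma). The share of all genes with this opposition was not counted here either. Zic5 was listed for its likeness to Gli2, which rested on low control PGCLC levels, so its low level there was partly set by that choice. Klf5, Pou3f1 and Zic5 were lower in control PGCLCs than in control ESCs and higher in Tfap2c-/- PGCLCs than in Tfap2c-/- ESCs, with differences of 0.83 (adjusted p = 0.499), 1.38 (adjusted p = 0.267) and 2.97 (adjusted p = 0.161). Kit, the stem cell factor receptor, was higher in control PGCLCs and lower in Tfap2c-/- PGCLCs than in the ESCs of their genotype (-1.81, adjusted p = 0.0847). Tbx6 followed the order of Kit and also had the knockout samples above the controls in ESCs and below them in PGCLCs (-0.60, adjusted p = 0.297). Its values, 2.11 to 2.65, all lay below the array medians. The nearest samples of knockout PGCLCs and knockout ESCs were at 2.21 and 2.22. Cdx2 had the knockout samples above the controls in ESCs and below them in PGCLCs (-1.10, adjusted p = 0.590). In ESCs it was at 3.90 and 4.30 in the knockout against 3.89 and 3.89 in controls, so 1 knockout sample was barely above them.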

How the results depend on the processing

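The 17 alternatives kept the direction of every call, while 68 uncalled values changed sign. Of the 8 hedgehog genes, 2 passed in Tfap2c-/- against control PGCLCs. The number was 1 with the mean of probe sets, with all probe sets tested and without the trend, and 0 with the compared arrays alone. Leaving out 1 array gave 0 to 3, the 3 being Gli1, Ptch1 and Hhip without Tfap2c-/- PGCLC sample 1. The difference of knockout effects had 0 called genes, 0 to 1 with an array left out and 2 by the size rule on either choice of probe set. Control PGCLCs against control ESCs gave 1, then 2 with the compared arrays alone, the replicate block and the size rule on either choice, and 0 to 2 with an array left out. Tfap2c-/- PGCLCs against Tfap2c-/- ESCs gave 0, and 0 to 1 with an array left out, while ESCs gave 0 in each. The other pathway and target genes gave 5 calls, 3 with the mean of probe sets, 3 by the size rule on the highest-mean probe set, 7 of the 25 left by the filter at 5 (Ccnd1 and Arrb2 being added, Arrb2 at -0.77, adjusted p = 0.0412), 0 with the compared arrays alone and 0 to 5 with an array left out. The cause was not tested.

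The labels share replicate numbers but name no line. Deviations of same-numbered samples correlated at 0.392 between the PGCLC genotypes and at -0.333 between the ESC genotypes, with the other pairs of groups between these values. Whether a number joins a knockout line to its own parental line cannot be told from this, and the main fit did not take the numbers as pairs. With the replicate as a block, Gli1 passed in PGCLCs (adjusted p = 0.0344) and in control PGCLCs against control ESCs (adjusted p = 0.0332), and Gli2 and Ptch1 kept their calls (adjusted p = 0.0344 and 0.0287).

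Over all genes, 562 passed between PGCLC genotypes, against 187 with the compared arrays alone and, with an array left out, 87 without control PGCLC sample 2, 98 and 230 without Tfap2c-/- PGCLC samples 2 and 1, 366 and 372 without control ESC samples 2 and 1. Control PGCLCs against control ESCs gave 1522, and 325, 523, 653 and 390 without control ESC samples 1 and 2 and control PGCLC samples 1 and 2. Tfap2c-/- PGCLCs against Tfap2c-/- ESCs gave 422 and from 56 with the compared arrays alone to 278 where arrays were left out. The difference of effects, which uses all arrays, gave 27 and, with an array left out, from 1 without control ESC sample 1 to 56 without control PGCLC sample 1.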
